A study of Homo sapiens with 12 samples.

Results

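The transient genes of hematopoietic differentiation were examined, that is, the genes whose level in the middle stages left the range of both ends of the process. The middle stages were the 6 libraries of APLNR+ and CD31+CD34+ cells, and the ends were the 6 libraries of H1 and CD43+ cells, 12 libraries in all. A gene was taken as a transient gain when each of the 6 middle libraries lay above each of the 6 end libraries, and as a transient loss when each lay below. Of 14840 genes that reached 1 FPKM in at least 3 libraries, 932 were transient gains (6.28% of the genes tested) and 691 were transient losses (4.66%). FPKM is the number of fragments scaled by transcript length and by the mapped fragments of the library, and all differences below are on the scale of log2(FPKM + 1).

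H1, an established human embryonic stem cell line, was the source of every population. Mesoderm carrying the apelin receptor (APLNR+) was sorted on day 2, hemogenic endothelial progenitors (HEPs, CD31+CD34+) on day 5 and hematopoietic progenitor cells (HPCs, CD43+) on day 8, with 3 libraries for each population and for undifferentiated H1. Per the labels the medium of every population but H1 held BMP4 (50 ng/ml) with activin A (40 ng/ml) during the first 2 days. The methods give this pair of concentrations the other way round. For HEPs and HPCs, bFGF (50 ng/ml) with VEGF (40 ng/ml) followed. The labels give 6 days of this second medium for both, although HEPs were sorted on day 5. The methods speak in general of independent experiments for each analysis, but the labels do not say whether the 3 libraries of a population came from separate cultures, so p values measure the spread between these libraries, which may be technical.

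As background, blood cells arise in the embryo from mesoderm by way of endothelium. Mesoderm forms when epithelial cells loosen their contacts and take on a mesenchymal form with matrix, motility and contractile genes (the epithelial-to-mesenchymal transition), and blood progenitors later round up and leave the endothelial layer (the endothelial-to-hematopoietic transition). BMP, Nodal/activin and Wnt signals induce mesoderm, and VEGF and FGF support the endothelial step.

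The depth of the libraries is unknown, since FPKM carries no read totals. Between 12297 and 13060 genes per library reached 1 FPKM, and small RNA genes held 10.4% to 66.2% of summed FPKM. An exact 0 can be a failed estimate here, and 50 of the genes tested were suspected of one, of which none was a transient gain or loss. Each sorted population carried the transcripts of its sorting markers. In APLNR+ cells APLNR averaged 383 ± 22.2 FPKM, against 0.528 ± 0.152 FPKM for H1 (SD, n = 3), PECAM1 (CD31) and CD34 averaged 55.2 ± 4.10 and 47.7 ± 7.08 FPKM in HEPs, and SPN (CD43) averaged 75.5 ± 15.2 FPKM in HPCs. PECAM1 and CD34 were not confined to HEPs. In HPCs PECAM1 was higher (95.9 ± 11.7 FPKM), and CD34 averaged 22.2 ± 4.21 FPKM. In these bulk samples, fewer cells of a type and less RNA per cell cannot be told apart.

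FN1 (fibronectin, a matrix glycoprotein that cells grip through integrins) and NRP1 (neuropilin 1, a co-receptor for VEGF and semaphorins) had been named as markers of the middle stages. FN1 was listed at 12.4, 12.9 and 12.1 FPKM in H1, then 150, 146 and 141 FPKM in APLNR+ cells, at 555, 661 and 627 FPKM in HEPs, and at 97.1, 112 and 106 FPKM in HPCs. The sets did not overlap, and FN1 was a transient gain with a log2 difference between middle and end libraries of 2.99 ± 0.06 (SE, adjusted p 6.44e-12). It did not return to its starting level, since HPCs stayed 2.98 log2 units above H1 (adjusted p 3.06e-11). NRP1 read 0.626, 0.400 and 0.576 FPKM in H1, then 17.1, 19.1 and 19.4 FPKM in APLNR+ cells, 43.7, 57.5 and 57.4 FPKM in HEPs, and 14.6, 20.0 and 19.8 FPKM in HPCs. Its APLNR+ and CD43+ libraries overlapped, so NRP1 was no transient gain, although the average of the middle libraries exceeded that of the ends by 2.58 ± 0.10 (adjusted p 5.95e-10).

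**Figure D1:**
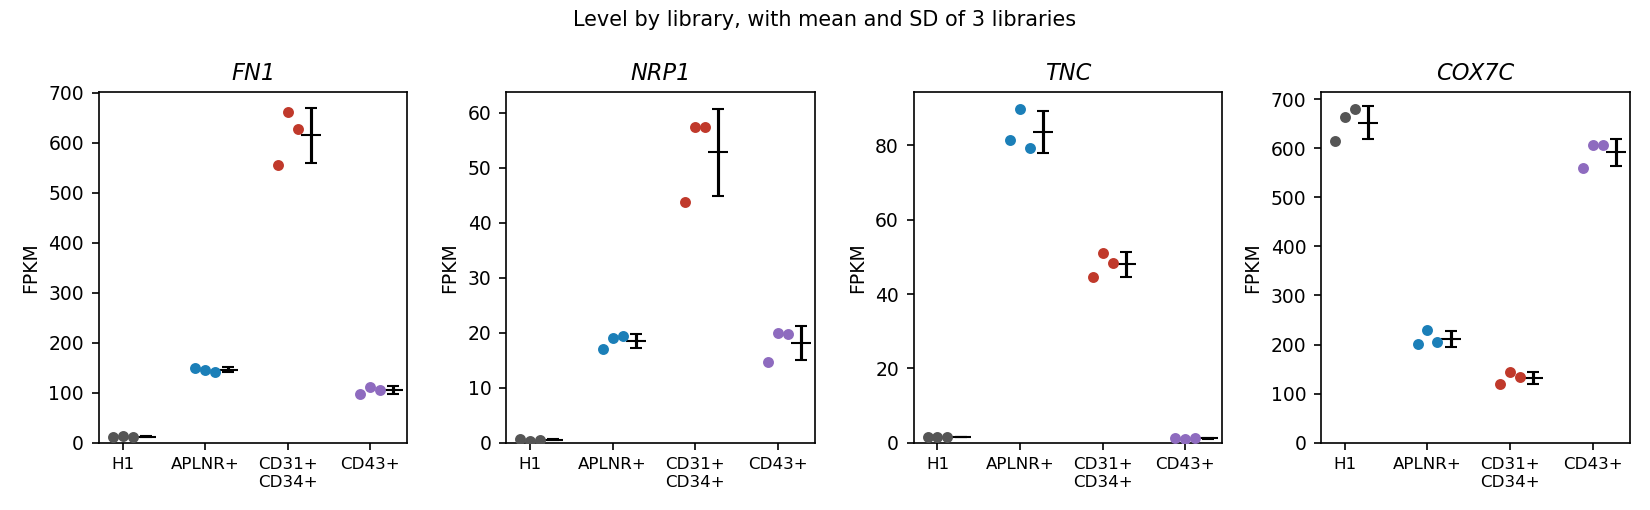
FPKM of FN1, NRP1, TNC and COX7C in each library (points) for H1, APLNR+, CD31+CD34+ and CD43+ cells, with the mean and SD of 3 libraries beside them (black). FN1 and TNC lay higher in the 6 middle libraries than in the 6 end libraries, COX7C lay lower, and the APLNR+ and CD43+ libraries of NRP1 overlapped.

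Separation and the size of a difference are not the same thing, so both were recorded. A linear model of all 4 populations (limma) compared the average of both middle populations with the average of both ends, and calls required both an adjusted p under 0.05 and a 2-fold difference. On this average, 965 genes were higher in the middle (6.5% of the genes tested) and 541 were lower (3.65%). Of the transient gains, 552 were called higher (59.2%), and of the transient losses 166 were called lower (24.0%). A stricter reading, in which each middle population had to pass against each end in 4 separate contrasts, left 220 higher genes (1.48%) and 40 lower genes (0.27%), and of these 219 and 40 were also separated. The median log2 difference was 1.14 for transient gains and -0.74 for transient losses, beside -0.07 for all genes tested. The rule fixed the sign of these medians, and they are given as a description of size.

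The average can also be moved by a single population. Of the called genes, 413 of those higher and 375 of those lower had overlapping libraries. CER1, a secreted antagonist of Nodal and BMP, averaged 2238 ± 67.5 FPKM in APLNR+ cells but 1.83 ± 0.497 FPKM in HEPs, inside the range of the ends. HBG2, a fetal globin, was called lower with 1324 ± 187 FPKM in HPCs and 0.465 ± 0.535 FPKM in H1. Others were highest in HEPs or in H1, as described for APLN below and as for SOX2, a pluripotency factor with 43.0 FPKM in H1 and at most 0.269 FPKM in the other population means. Such genes were not transient in the sense used here.

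The gap between the sets, from the lowest library of the higher set to the highest library of the lower set, was wider for gains than for losses. It was at least 1 log2 unit for 121 gains and for 15 losses, and under 0.1 for 200 gains and 224 losses. The widest gap was 4.14 for gains and 2.49 for losses. At the limit itself, the gains with the narrowest gaps were SRP68, with 10.6 FPKM both in its lowest middle and in its highest end library, and OPLAH (3.75 and 3.74 FPKM). AL445218.1 and AC121764.1 stood just outside, being listed at 0 in middle as well as end libraries. FGF23 and SCN4B were the losses nearest the limit, and PPBP and 7SK stood just outside, each listed at 0 in at least 1 library of both sets.

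**Figure D2:**
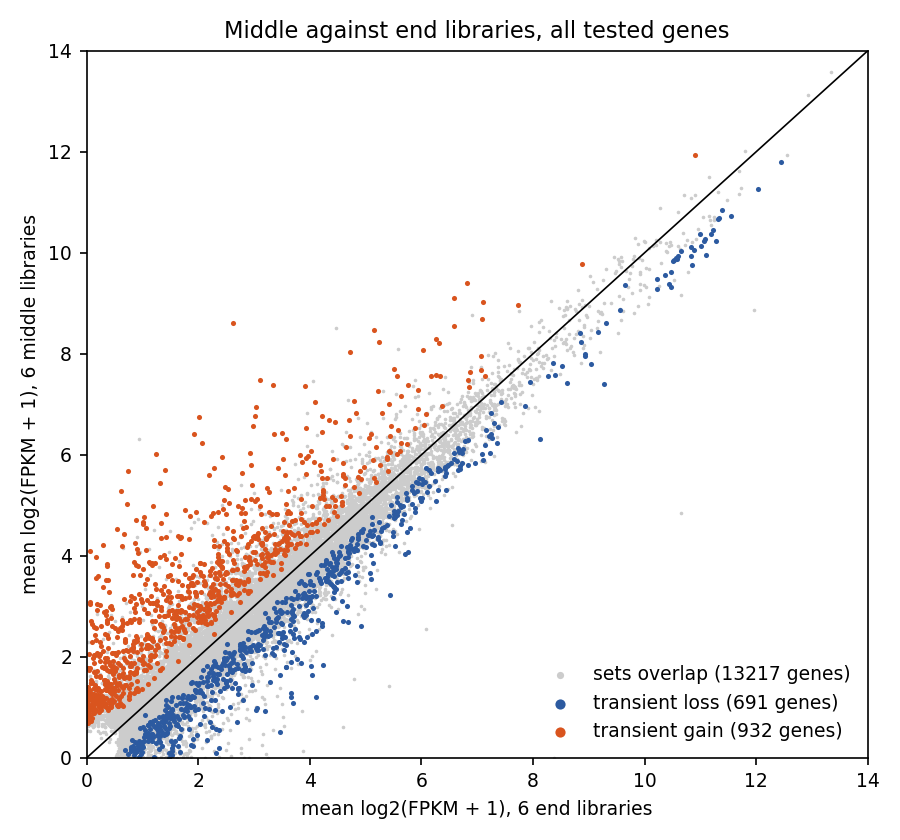
Mean log2(FPKM + 1) of each of the 14840 genes tested in the 6 end libraries (x axis) and the 6 middle libraries (y axis), with the line of equal level. The 932 transient gains (orange) spread farther from the line than the 691 transient losses (blue), with median log2 differences of 1.14 and -0.74.

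Replicate 1 was used to look up genes that had been separated in replicates 2 and 3 alone. Of 1236 genes whose middle libraries lay above the ends in replicates 2 and 3, 1117 did so in replicate 1 as well (90.4%), against 12.9% of all genes tested. Of 1091 genes that lay below, 929 did so in replicate 1 (85.2%), against 13.2% of all. Looking up replicate 2 or 3 in the same way gave 92.3% and 91.9% for gains, and 88.3% and 90.6% for losses. These shares describe how alike the libraries of a population were, and since the libraries may be technical repeats they are no independent support for the sets.

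The 12 widest gains were taken among protein-coding genes with a mean of at least 10 FPKM in the higher set. Tenascin C (TNC), a matrix glycoprotein of migrating and remodelling tissue, had the widest gap of all genes tested. It was listed at 1.58, 1.52 and 1.54 FPKM in H1, then 81.4, 89.9 and 79.4 FPKM in APLNR+ cells, 44.5, 51.1 and 48.2 FPKM in HEPs, and 1.25, 1.08 and 1.26 FPKM in HPCs. TNC thus rose and returned to a level slightly below that of H1, with a log2 difference between middle and ends of 4.76 ± 0.06. COL5A2, a fibrillar collagen chain, followed the same course, from 9.29 ± 2.02 FPKM in H1 to 291 ± 22.1 and 94.9 ± 4.42 FPKM in the middle and 9.09 ± 1.53 FPKM in HPCs. FBN2 (fibrillin 2, of elastic microfibrils) reached 132 ± 7.63 FPKM in APLNR+ cells and remained in HPCs at 11.8 ± 0.752 FPKM, above the 4.06 ± 0.311 FPKM of H1.

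The apelin receptor gene APLNR, on whose protein the day 2 cells had been sorted, overlapped between HEPs (381, 429 and 398 FPKM) and APLNR+ cells (388, 402 and 359 FPKM). It fell to 21.7, 26.2 and 23.2 FPKM in HPCs. BMP4, a ligand that was itself in the first medium, read 1.21, 0.763 and 0.663 FPKM in H1, then 94.3, 96.8 and 89.8 FPKM in APLNR+ cells, 27.7, 28.4 and 26.9 FPKM in HEPs, and 2.61, 2.80 and 2.88 FPKM in HPCs. BMPER, a secreted modulator of BMP signaling, went the other way within the middle, with 80.4 ± 0.972 FPKM at day 2 (APLNR+) and 143 ± 7.44 FPKM at day 5. CYP26A1, which breaks down retinoic acid, was mostly a day 2 gene, with 130 ± 4.88 FPKM in APLNR+ cells, 10.5 ± 0.579 FPKM in HEPs and at most 1.07 FPKM in the ends.

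HAND1, a transcription factor of lateral mesoderm and heart, was listed at 0.0543, 0.0467 and 0.0698 FPKM in H1, then 36.6, 48.9 and 49.1 FPKM in APLNR+ cells, 18.6, 24.8 and 24.5 FPKM in HEPs, and 1.24, 1.65 and 1.89 FPKM in HPCs. SOX17, a transcription factor of endoderm and arterial endothelium, held 17.5 ± 1.87 and 24.2 ± 4.07 FPKM in the middle and 1.40 ± 0.239 FPKM in HPCs. SLPI, a secreted protease inhibitor, was listed at 0 in the 3 H1 libraries, at 10.4 ± 0.840 and 29.5 ± 3.60 FPKM in the middle populations, and at 0.486 ± 0.127 FPKM in HPCs. No fold against H1 is given for it.

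ACTC1 (cardiac alpha actin) and MYL7 (atrial myosin light chain) are genes of contractile filaments. ACTC1 was listed at 1.75, 3.75 and 2.29 FPKM in H1, then 59.0, 73.5 and 73.0 FPKM in APLNR+ cells, 84.3, 114 and 112 FPKM in HEPs, and 2.36, 3.402 and 3.61 FPKM in HPCs. MYL7 peaked earlier, at 122, 112 and 89.8 FPKM in APLNR+ cells, and held 23.4, 23.0 and 22.7 FPKM in HEPs. Both ends of MYL7 lay at or under 1.62 FPKM. Short stretches of promoter are shown here for both genes and for MIXL1 and HSPA8, which are described below, because each holds a textbook binding motif. The letters come from RefSeq (GRCh38.p14), run 5′ to 3′ on the strand of the gene, and carry the motif in capitals. In ACTC1 and MYL7 it is the CArG box of serum response factor, in MIXL1 the FOXH1 motif AATCCACA on the opposite strand, and in HSPA8 the heat shock element GAANNTTCNNGAA.
ACTC1, chr15:34795619-34795688, minus strand: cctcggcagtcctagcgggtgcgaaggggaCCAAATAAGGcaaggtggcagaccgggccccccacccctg
MYL7, chr7:44141354-44141423, minus strand: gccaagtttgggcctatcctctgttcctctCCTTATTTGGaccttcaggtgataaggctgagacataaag
MIXL1, chr1:226223414-226223452, plus strand: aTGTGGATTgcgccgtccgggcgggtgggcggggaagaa
HSPA8, chr11:123062324-123062386, minus strand: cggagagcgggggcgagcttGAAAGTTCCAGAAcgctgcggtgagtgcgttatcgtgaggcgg

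Motifs were searched on both strands of the 250 bases before the start site, for which the RefSeq table held 10376 of the genes tested, 629 of the gains and 508 of the losses. The CArG box was found in 8 gains (1.27%), beside 1.0% of all genes tested. The 8 were ACTC1, MYL7, TCF7, CNR1, CAPN13, AQP3, TCP11L1 and MPZL1. The FOXH1 motif stood in 4 gains, MIXL1, MESP2, SP5 and CORO2B (0.636%), and in 4 losses (0.787%), beside 0.279% of all. The letters TATAAA were found in 9.54% of gains, 5.31% of losses and 5.22% of all. CCGGAAGT, bound by ETS factors, was found in 2.07% of gains, 9.65% of losses and 7.05% of all, and the NRF1 motif, searched as its palindromic core, in 5.25% of gains, 51 of the 508 losses and 10.2% of all. GGAATG, bound by TEAD factors, was found in 63 of the 629 gains, 10.2% of losses and 9.47% of all. A match is a run of letters and does not show binding.

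**Figure D3:**
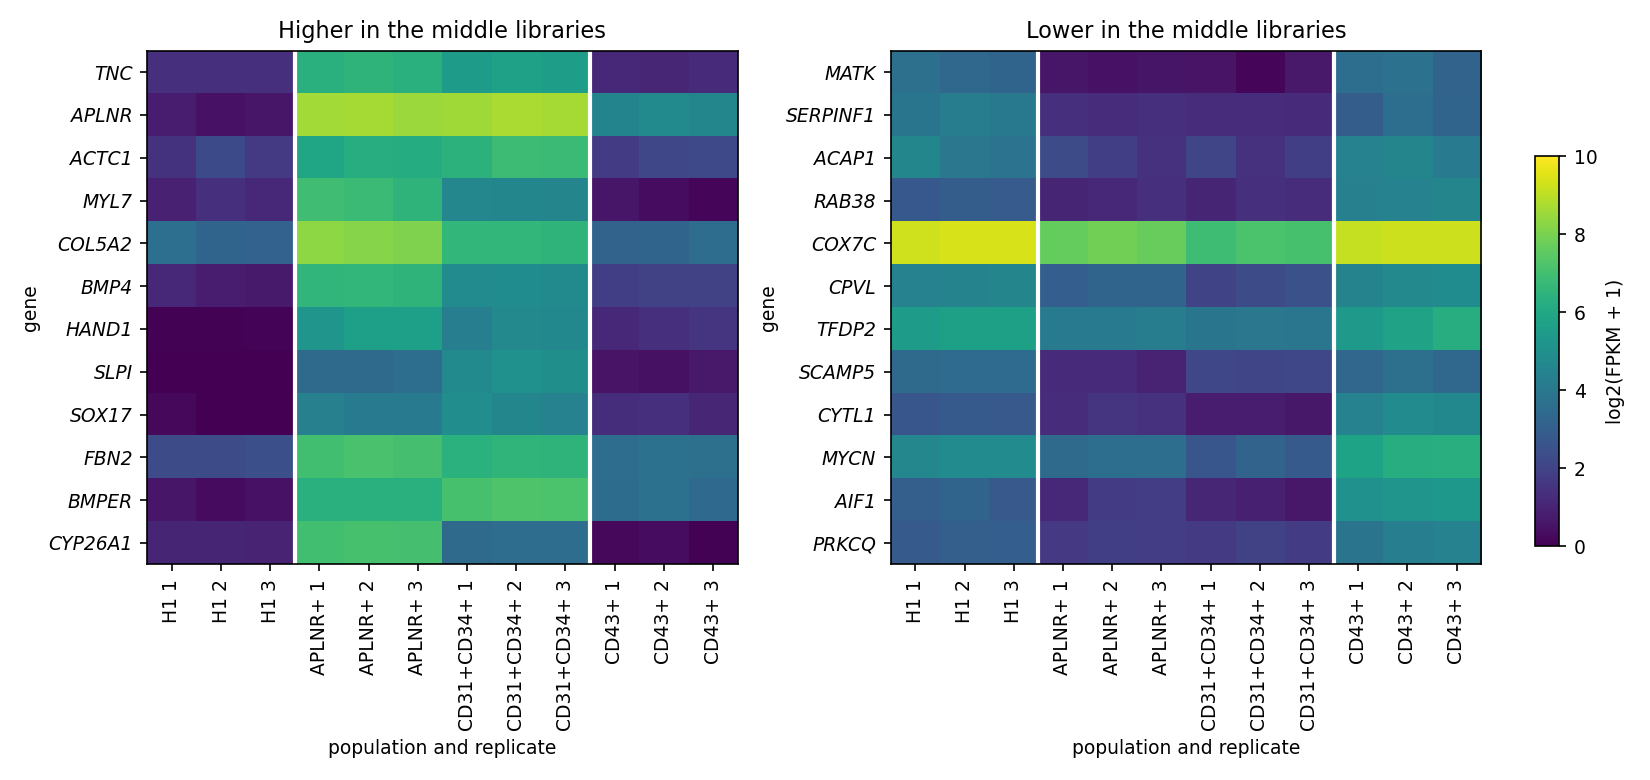
Level of the 12 transient gains (left) and 12 transient losses (right) with the widest gaps, as log2(FPKM + 1) by colour, in each of the 12 libraries (columns, white lines around the middle stages). In the left panel the 6 central columns are brighter than the outer columns of the same row, and in the right panel they are darker.

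The remaining genes are described by lists written from general knowledge, each read against the 6.28% of gains and 4.66% of losses among all genes tested. Counts of limma calls are read against the 6.5% called higher and 3.65% called lower among all. Of 77 tested genes of the extracellular matrix, 21 were transient gains (27.3%) and none a loss, and limma called 37 higher and 4 lower (COL2A1, COL14A1, HAPLN3 and THBS1). The hyaluronan synthase HAS2 averaged 1.23 ± 0.0776 FPKM in H1, 143 ± 18.7 FPKM in APLNR+ cells, 12.2 ± 1.92 FPKM in HEPs and 1.75 ± 0.260 FPKM in HPCs (log2 difference 4.13 ± 0.09). HAPLN1, which links hyaluronan to proteoglycan, was called higher (4.05 ± 0.15) but was no transient gain, since HPCs (176 ± 29.1 FPKM) exceeded APLNR+ cells (148 ± 18.1 FPKM). The osteonectin gene SPARC rose in both middle populations alike, to 306 ± 40.1 and 289 ± 38.3 FPKM, from 56.9 ± 8.32 FPKM in H1, and ended at 112 ± 23.1 FPKM.

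Among 52 genes of matrix remodelling, 11 were transient gains (21.2%) and 16 were called higher. The protease inhibitor SERPINE2 was largely a day 2 gene, with 399 ± 57.7 FPKM in APLNR+ cells and 67.8 ± 9.45 FPKM in HEPs, against 12.8 ± 1.18 and 15.8 ± 2.44 FPKM at the ends (3.44 ± 0.10). The gelatinase MMP2 was higher in HEPs (118 ± 13.1 FPKM) than in APLNR+ cells (52.7 ± 1.25 FPKM), and fell to 22.6 ± 3.12 FPKM in HPCs. Of 18 integrin genes, 2 were transient gains (11.1%), both of them alpha chains of receptors for FN1. Among the 18, limma called 4 higher (22.2%) and 2 lower (11.1%). ITGAV held 38.4 ± 2.59 and 37.5 ± 2.65 FPKM in the middle against 13.1 ± 0.467 and 9.55 ± 0.567 FPKM at the ends (1.67 ± 0.06), and ITGA5 70.1 ± 4.13 and 169 ± 16.9 FPKM against 6.46 ± 0.625 and 45.5 ± 6.09 FPKM (2.56 ± 0.08). The platelet integrin chains ITGA2B and ITGB3 were called lower through HPCs, where they reached 575 ± 8.75 and 96.1 ± 10.99 FPKM.

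Guidance receptors and ligands, which steer axons and vessels, gave 17 transient gains of 62 genes (27.4%) and 1 loss, the semaphorin SEMA4D, which overlapped under quantile normalization. NRP2, the paralog of NRP1, was separated where NRP1 was not. It averaged 4.52 ± 0.402 FPKM in H1, 47.9 ± 5.49 FPKM in APLNR+ cells, 149 ± 28.2 FPKM in HEPs and 18.3 ± 1.86 FPKM in HPCs (3.04 ± 0.10). The semaphorin receptor PLXNA2 reached 59.3 ± 5.83 FPKM in APLNR+ cells and 9.23 ± 1.66 FPKM in HEPs, and the ephrin receptor EPHA4 47.6 ± 3.34 and 16.4 ± 1.52 FPKM, with 4.13 ± 0.222 and 4.19 ± 0.990 FPKM in H1 and HPCs.

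Signaling genes of the TGF-beta and BMP pathway held 22 transient gains of 61 (36.1%) and no loss, and limma called 26 higher and 0 lower at an adjusted p under 0.05 and 2-fold, beside 26 and 0 under upper-quartile scaling and 24 and 0 under quantile normalization. The gains included the receptors BMPR2 and ACVR1 and the signal-transducing SMAD9. The ligand BMP2 averaged 0.450 ± 0.0524 FPKM in H1, 71.3 ± 0.939 FPKM in APLNR+ cells, 3.63 ± 0.129 FPKM in HEPs and 0.651 ± 0.0925 FPKM in HPCs (3.56 ± 0.06, adjusted p 8.56e-13). The BMP antagonist NOG reached 7.18 ± 1.00 and 2.61 ± 0.401 FPKM in the middle with at most 0.161 ± 0.0237 FPKM at the ends. The inhibitory SMAD7 held 21.5 ± 3.31 and 23.8 ± 0.840 FPKM against 9.04 ± 0.572 FPKM in H1 and 2.29 ± 0.319 FPKM in HPCs. All 4 inhibitors of differentiation, which are direct BMP targets, were transient gains. ID1 rose from 81.9 ± 16.8 FPKM in H1 to 258 ± 30.7 and 543 ± 51.5 FPKM and ended at 112 ± 11.7 FPKM (1.96 ± 0.10). ID4 was higher in APLNR+ cells (15.3 ± 1.10 FPKM) than in HEPs (5.82 ± 0.522 FPKM), the reverse of ID1.

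Wnt signaling genes held 17 transient gains of 57 (29.8%) and no loss, with 20 called higher and 2 lower (SFRP1 and SFRP5, secreted Wnt antagonists). WLS, which carries Wnt proteins to the cell surface, averaged 0.530 ± 0.110 FPKM in H1, 92.2 ± 2.10 FPKM in APLNR+ cells, 61.0 ± 10.2 FPKM in HEPs and 10.7 ± 1.95 FPKM in HPCs (4.17 ± 0.10). The antagonist DKK1 and the ligand WNT5A were mainly day 2 genes, at 65.4 ± 1.64 and 51.1 ± 5.72 FPKM in APLNR+ cells and 3.62 ± 0.284 and 2.88 ± 0.400 FPKM in HEPs. NKD1, a feedback target, held 25.2 ± 4.10 and 9.84 ± 1.52 FPKM and was near 1 FPKM at both ends (1.05 ± 0.286 and 0.818 ± 0.636 FPKM).

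Vascular growth factor genes gave 13 transient gains of 60 (21.7%) and 1 loss. The loss was VEGFA itself, the endothelial growth factor whose protein was in the second medium, at 9.89 ± 0.773 and 9.82 ± 1.09 FPKM at the ends and 6.65 ± 0.181 and 5.26 ± 0.645 FPKM in the middle. This difference of -0.65 ± 0.08 did not reach 2-fold. PDGFRA, a growth factor receptor of mesoderm and mesenchyme, rose to 18.8 ± 0.811 FPKM in APLNR+ cells and stood at 4.25 ± 0.348 FPKM in HEPs (2.11 ± 0.08). APLN, the ligand of the apelin receptor, was called higher but was a gene of HEPs alone, at 24.2 ± 2.17 FPKM there and 0.0260 ± 0.0175 FPKM in APLNR+ cells.

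Of 54 mesoderm transcription factors, 20 were transient gains (37.0%) and 26 were called higher. EOMES averaged 0.0684 ± 0.00955 FPKM in H1, 56.5 ± 4.28 FPKM in APLNR+ cells, 4.14 ± 0.0637 FPKM in HEPs and 0.0122 ± 0.0211 FPKM in HPCs (4.04 ± 0.06). MIXL1, whose promoter is printed above, reached 48.1, 83.4 and 82.3 FPKM in APLNR+ cells and only 0.848, 1.28 and 1.16 FPKM in HEPs, still above its highest end library of 0.440 FPKM. GATA6 (42.0 ± 3.07 and 16.3 ± 2.16 FPKM) and GATA4 (15.3 ± 1.65 and 10.9 ± 1.18 FPKM) were shared by both middle populations and fell to 3.05 ± 0.0396 and 2.44 ± 0.380 FPKM in HPCs. The cardiac factor NKX2-5 was the opposite of MIXL1, at 2.77 ± 0.164 FPKM in APLNR+ cells and 21.7 ± 1.32 FPKM in HEPs.

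The regulators of the epithelial-to-mesenchymal transition differed from each other. SNAI1 read 0.596, 1.09 and 0.940 FPKM in H1, then 9.19, 11.5 and 10.1 FPKM in APLNR+ cells, 2.89, 5.25 and 4.92 FPKM in HEPs, and 0.979, 1.55 and 1.16 FPKM in HPCs, and was a transient gain (1.92 ± 0.13, adjusted p 8.38e-08). SNAI2 was a narrower gain, with 10.03 ± 1.39 FPKM in APLNR+ cells, 2.04 ± 0.308 FPKM in HEPs and 1.16 ± 0.189 FPKM in HPCs. ZEB2 was not transient, because HPCs (53.4 ± 3.93 FPKM) lay above APLNR+ cells (11.7 ± 1.79 FPKM). Its libraries of HPCs and HEPs (48.2 ± 1.03 FPKM) overlapped. TBX20 also overlapped, with 2.15 ± 0.185 FPKM in APLNR+ cells and 2.01 ± 0.434 FPKM in HPCs, and FOXD1 stayed under 1 FPKM in all libraries and was not tested.

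Genes of the actin cytoskeleton and targets of the mechanosensitive coactivator YAP held 29 transient gains of 84 (34.5%), with 29 called higher and 0 lower by limma, 33 and 0 under upper-quartile scaling, and 32 and 1 under quantile normalization. ANKRD1, a YAP target, averaged 0.158 ± 0.0662 FPKM in H1, 48.5 ± 6.13 FPKM in APLNR+ cells, 9.78 ± 0.665 FPKM in HEPs and 0.851 ± 0.2804 FPKM in HPCs (3.98 ± 0.09). FLNC, which cross-links actin, was held through both middle stages at 57.0 ± 10.8 and 67.2 ± 4.83 FPKM. The smooth muscle protein gene TAGLN reached 466 ± 69.7 and 274 ± 29.4 FPKM, and in HPCs (15.7 ± 1.57 FPKM) fell below its level in H1 (76.4 ± 15.7 FPKM).

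Of 32 genes of cholesterol synthesis, 8 were transient gains (25.0%), and 10 were called higher and none lower. HMGCS1, an early enzyme of the pathway, averaged 95.4 ± 13.3 FPKM in H1, 222 ± 35.1 FPKM in APLNR+ cells, 160 ± 18.5 FPKM in HEPs and 53.6 ± 4.01 FPKM in HPCs (1.38 ± 0.10). The number of gains was 12 with upper-quartile scaling and 15 with quantile normalization. Epithelial genes held 3 gains of 45 (6.67%), close to the share of all genes, with a median of -0.01, or 0.01 under upper-quartile scaling. All 3 were keratins of simple epithelia. KRT8 held 462 ± 34.4 and 654 ± 49.7 FPKM in the middle against 152 ± 6.58 and 60.5 ± 9.93 FPKM at the ends (2.51 ± 0.08). KRT18 and KRT19 were the others, and the claudin CLDN10 was the 1 loss. Among 51 endothelial genes, 2 were transient gains (3.92%), and 11 were called higher (21.6%, beside 6.5% of all genes tested), 9 of them without full separation.

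**Figure D4:**
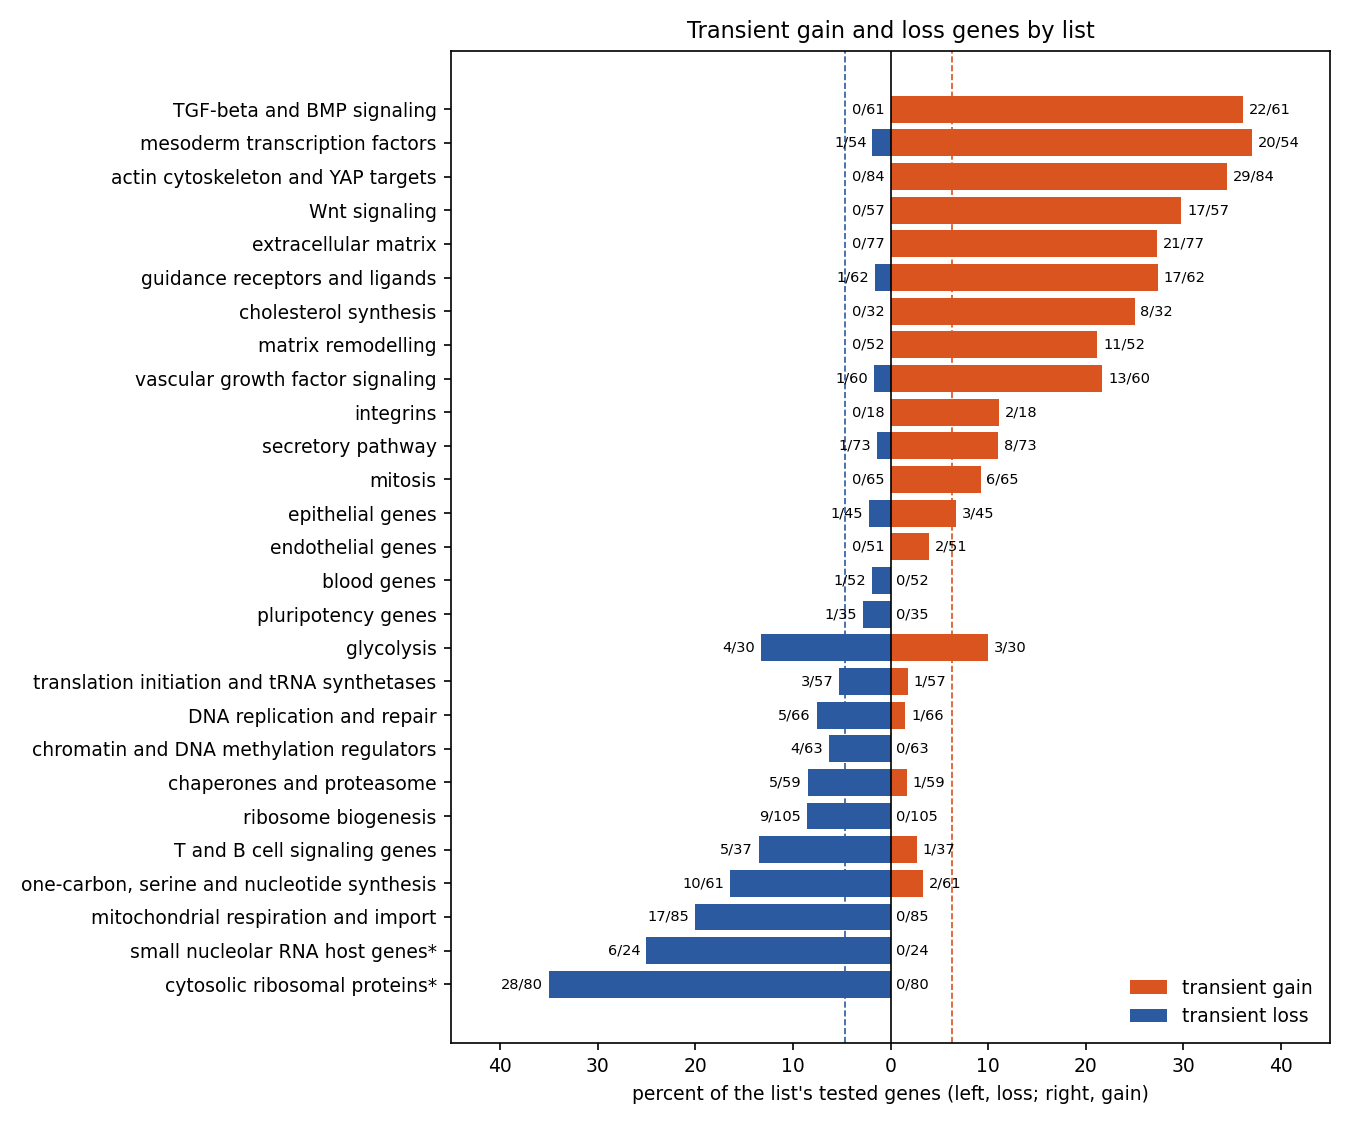
Percent of the tested genes of each list that were transient gains (orange, right) or transient losses (blue, left), with the counts at the bar ends and the percent among all genes tested as dashed lines (6.28% and 4.66%). Signaling, mesoderm, actin and matrix lists extend to the right, and mitochondrial and ribosomal lists to the left, and lists with an asterisk were chosen after their values were seen.

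The transient losses were shallower, and the 12 widest were likewise taken among protein-coding genes with a mean of at least 10 FPKM in the higher set. MATK, a kinase of hematopoietic and neural cells that inhibits SRC family kinases, had the widest gap. It was listed at 11.97, 9.13 and 8.40 FPKM in H1, then 0.537, 0.415 and 0.494 FPKM in APLNR+ cells, 0.448, 0.1003 and 0.625 FPKM in HEPs, and 11.2, 12.3 and 8.14 FPKM in HPCs. The MATK libraries of H1 and HPCs overlapped (0.09 log2 units apart, adjusted p 0.657). ACAP1, a GTPase-activating protein for ARF6, gave a similar picture, with 17.0 ± 5.47 and 19.6 ± 3.27 FPKM at the ends and 2.77 ± 1.20 and 2.52 ± 0.754 FPKM in the middle.

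MYCN, a growth-promoting transcription factor of stem cells and progenitors, was listed at 23.8, 27.6 and 27.1 FPKM in H1, then 9.93, 11.2 and 11.2 FPKM in APLNR+ cells, 5.40, 8.05 and 6.21 FPKM in HEPs, and 54.7, 73.3 and 76.5 FPKM in HPCs. It was the only transient loss among 35 pluripotency genes (2.86%, beside 4.66% of all genes tested). TFDP2, a partner of E2F factors, went from 48.1 ± 4.05 FPKM in H1 to 16.7 ± 0.572 and 14.1 ± 0.547 FPKM and back to 56.3 ± 17.5 FPKM. COX7C, a subunit of cytochrome c oxidase, was the most abundant of the 12, at 614, 664 and 679 FPKM in H1, then 200, 230 and 206 FPKM in APLNR+ cells, 119, 144 and 134 FPKM in HEPs, and 560, 607 and 607 FPKM in HPCs.

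Several of these losses ended higher than they began. AIF1, an actin-binding protein of macrophages, averaged 7.14 ± 1.14 FPKM in H1 and 36.0 ± 3.75 FPKM in HPCs, with 2.02 ± 0.692 and 0.833 ± 0.287 FPKM between (HPCs minus H1, 2.19, adjusted p 2.92e-07). The protein kinase C isoform PRKCQ (17.4 ± 3.57 FPKM in HPCs against 6.82 ± 0.564 FPKM in H1), the RAB GTPase RAB38 (20.9 ± 1.41 against 6.30 ± 0.506 FPKM) and the cytokine-like CYTL1 (24.2 ± 3.21 against 5.77 ± 0.387 FPKM) did the same. SERPINF1, an inhibitor of vessel growth, ended lower, at 8.79 ± 2.23 FPKM after 15.6 ± 1.77 FPKM in H1, with 1.51 ± 0.0841 and 1.38 ± 0.0365 FPKM in the middle. CPVL, a carboxypeptidase, and SCAMP5, a vesicle membrane protein, returned to within 0.20 and 0.04 log2 units of H1.

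Among lists, mitochondrial respiration and import held 17 transient losses of 85 genes (20.0%) and no gain. There limma called 7 lower (8.24%, beside 3.65% of all genes tested) and none higher. The median difference of the list was -0.49. COX7B went from 47.7 ± 5.06 FPKM in H1 to 27.9 ± 2.97 and 10.8 ± 1.06 FPKM and back to 43.4 ± 3.34 FPKM (-1.33 ± 0.08). ATP5G1, a subunit of the ATP synthase, was lowest in APLNR+ cells (50.9 ± 6.96 FPKM, against 83.8 ± 11.2 FPKM in HEPs, 122 ± 3.78 FPKM in H1 and 184 ± 16.5 FPKM in HPCs). Genes of one-carbon, serine and nucleotide synthesis held 10 losses of 61 (16.4%), of which MTHFD2L and MAT2B were also called lower. The list also held 2 gains, SHMT1 and PYCR1, and 4 genes called higher without separation (ASS1, ASNS, ALDH2 and PHGDH), against 3 called lower. Ribosome biogenesis held 9 losses of 105 (8.57%) and no gain, and 2 of its genes were called lower, both without separation. DNA replication and repair held 1 gain (POLE) and 5 losses of 66 (7.58%), among them PCNA, the sliding clamp of the replication fork, at 174 ± 3.42, 89.5 ± 5.01, 45.4 ± 3.98 and 104 ± 9.24 FPKM from H1 to HPCs (-1.06 ± 0.06, and -0.997 under quantile normalization, where it missed 2-fold).

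Chaperone and proteasome genes held 5 losses of 59 (8.47%). HSPA8, the constitutive heat shock protein whose promoter is printed above, read 2080, 2143 and 2110 FPKM in H1, then 841, 1019 and 1143 FPKM in APLNR+ cells, 828, 1057 and 1100 FPKM in HEPs, and 1893, 2332 and 2672 FPKM in HPCs. It was lower in all 4 contrasts, with an average difference of -1.15 ± 0.11, which shrank to -0.77 under quantile normalization. BAG3, its co-chaperone, moved in the opposite direction, from 1.84 ± 0.352 FPKM in H1 to 14.2 ± 1.41 and 6.44 ± 0.770 FPKM and 3.397 ± 0.450 FPKM in HPCs (1.59 ± 0.09). The heat shock element GAANNTTCNNGAA stood in 3 losses, HSPA8, CD83 and GAS5 (0.591%), in 1 gain (0.159%) and in 0.251% of all genes.

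A further group was formed after its values had been seen. Of 80 cytosolic ribosomal protein genes, 28 were transient losses (35.0%) and none a gain, with a median difference of -0.66, and 11 were called lower. RPL24 averaged 1833 ± 51.1 FPKM in H1, 1216 ± 66.2 FPKM in APLNR+ cells, 1020 ± 119 FPKM in HEPs and 1813 ± 192 FPKM in HPCs. With upper-quartile scaling 31 of these genes were losses, but with quantile normalization only 2 were, and the median became -0.33. Of 24 host genes of small nucleolar RNAs, also grouped afterwards, 6 were losses (25.0%) and 9 under either scaling. GAS5 averaged 510 ± 7.33, 286 ± 17.1, 172 ± 18.9 and 541 ± 45.8 FPKM from H1 to HPCs.

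Blood genes gave a contrast between calls and separation. Of 52, limma called 31 lower (59.6%, beside 3.65% of all genes tested) and 1 higher (1.92%, beside 6.5%). The actin regulator CORO1A was the 1 transient loss (1.92%, beside 4.66% of all). Of 37 genes of T and B cell signaling and the blood cytoskeleton, 5 were losses (13.5%), and ZAP70, a kinase of T cell receptor signaling, was a transient gain at 8.56 ± 0.674 FPKM in APLNR+ cells and 70.4 ± 5.50 FPKM in HEPs, against 0.0375 ± 0.0255 and 2.29 ± 0.145 FPKM at the ends (3.82 ± 0.07).

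Noncoding and pseudogene transcripts formed part of both sets. The lincRNA PCAT14 read 173, 192 and 204 FPKM in APLNR+ cells and 155, 169 and 174 FPKM in HEPs, against 0.810 ± 0.296 FPKM in H1 and 40.0 ± 3.53 FPKM in HPCs. Among noncoding genes with a mean of at least 10 FPKM in the higher set, KRT16P1, GATA6-AS1, AC090826.1 and AC097493.4 followed as gains, and PRKCQ-AS1, EPB41L4A-AS1, GAS5, RPARP-AS1 and GABPB1-AS1 had the widest gaps among losses. PRKCQ-AS1 and its neighbour PRKCQ were both losses. Whether reads were counted by strand is not stated, and KRT16P1 is a near copy of a keratin gene, so reads of these transcripts may be shared with their partners.

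The rule left the order within the middle and within the ends free, and these were compared with the same model. Of the gains, 163 were lower in HEPs than in APLNR+ cells (17.1% of all genes tested were) and 59 were higher (12.5% of all were), and for 710 (76.2%) neither call was made, beside 70.4% of all genes. Of the losses, 12 were lower and 4 higher in HEPs, and 675 (97.7%) passed in neither direction. Between the ends, 90 gains were higher in HPCs than in H1 and 44 were lower, beside 14.6% and 22.5% of all genes tested. The counts for losses were 38 and 22. For 614 gains and 617 losses no difference was called within the middle or within the ends. The rule limits these differences, since a large one makes the sets overlap, so the smaller shares are partly its effect. A p that misses the threshold does not show equal levels.

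**Figure D5:**
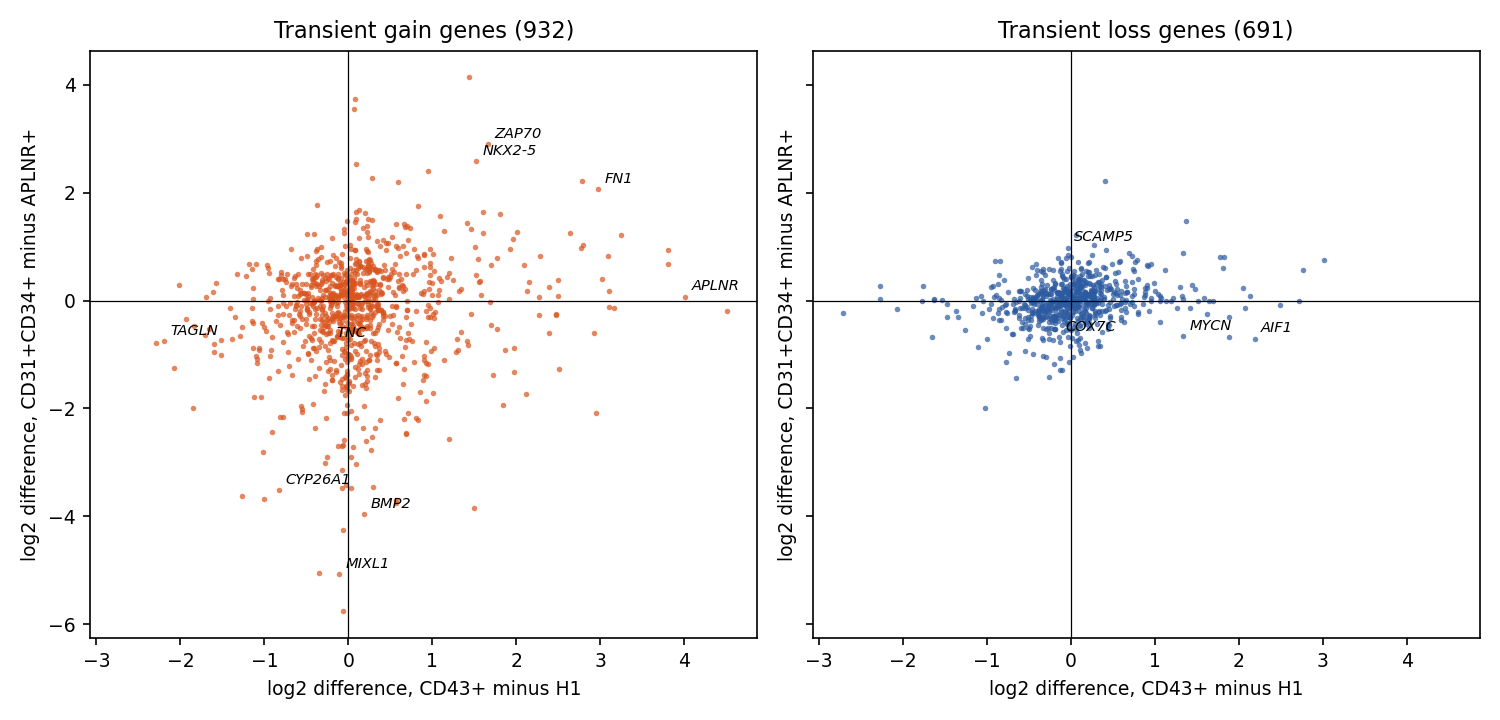
Log2 difference between HPCs and H1 (x axis) and between HEPs and APLNR+ cells (y axis) for each transient gain (left, 932 genes) and each transient loss (right, 691 genes). Gains reach low on the y axis through day 2 genes such as MIXL1, BMP2 and CYP26A1, and losses lie closer to 0, with MYCN and AIF1 to the right.

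Markers of the cell types that the sorted fractions could hold were summed in each library. Mesoderm markers totalled 22.3 to 29.7 FPKM in H1, 628 to 705 FPKM in APLNR+ cells, 621 to 776 FPKM in HEPs and 115 to 154 FPKM in HPCs, and 7 of the 9 were transient gains. In HEPs the mesoderm sum was mostly APLNR (mean of 402.5 FPKM) and KDR (276.5 FPKM). HAND1 averaged 22.6 FPKM there, and EOMES, MESP1, MIXL1 and T averaged 4.14, 1.08, 1.10 and 1.06 FPKM. The middle stages were no single cell type, since endothelial markers totalled 72.4 to 86.3 FPKM in APLNR+ cells and 785 to 1030 FPKM in HEPs. KDR counted in both lists, and with SOX17 it made up most of the endothelial sum in APLNR+ cells (means of 57.3 and 17.5 FPKM). PECAM1 and CDH5 averaged 0.0997 and 0.0591 FPKM in APLNR+ cells. Blood markers totalled 8.06 to 9.71 FPKM in APLNR+ cells and 63.5 to 83.4 FPKM in HEPs, against 845 to 955 FPKM in HPCs, and GATA1 averaged 0.00766, 1.83 and 56.0 FPKM in these populations. PTPRC was under 1 FPKM also in HPCs (mean of 0.197 FPKM) and marks no difference here. Pluripotency markers totalled 2400 to 2510 FPKM in H1, 807 to 887 FPKM in APLNR+ cells and 358 to 442 FPKM in HEPs. Fibroblast and smooth muscle markers totalled 471 to 611 and 385 to 461 FPKM in the middle, against 85.7 to 117 FPKM in H1 and 121 to 148 FPKM in HPCs. TAGLN made up most of that sum in the middle. Beside it, COL1A1 averaged 85.0 FPKM in HEPs and 7.37 FPKM in H1, COL3A1 24.2 and 0.140 FPKM, and ACTA2 13.3 and 0.922 FPKM. POSTN averaged 22.4 FPKM in APLNR+ cells and 0.730 FPKM in H1. The means of COL3A1 (44.2 FPKM), ACTA2 (34.8 FPKM) and PDGFRB (17.5 FPKM) were highest in HPCs, an end population. COL1A1 averaged 19.2 FPKM and POSTN 0.19 FPKM in HPCs. MYH11 and DCN were under 1 FPKM in every population mean, HPCs and H1 included. Cardiomyocyte markers totalled 95.8 to 127 and 45.5 to 47.9 FPKM in the middle, through MYL7 and NKX2-5. Their totals were 6.88 to 8.64 FPKM in H1 and 2.70 to 3.81 FPKM in HPCs. MYH6 and ACTN2 were under 1 FPKM throughout the middle. TNNT2 of the same list instead fell, with means of 4.91, 2.63, 0.266 and 0.0431 FPKM from H1 to HPCs. Endoderm markers totalled 8.29 to 9.43 FPKM in H1, 19.2 to 22.3 FPKM in APLNR+ cells, 35.8 to 46.2 FPKM in HEPs and 8.25 to 9.65 FPKM in HPCs. SOX17 was the largest part in the middle, and APOA1 (mean of 10.97 FPKM) and HNF4A (1.25 FPKM) were also highest in HEPs. AFP went the other way, with means of 8.56 FPKM in H1, 0.990 FPKM in APLNR+ cells and 2.57 FPKM in HEPs. FOXA2, FOXA1 and TTR were under 1 FPKM in the middle, and TTR was highest in HPCs (4.37 FPKM). Neural markers totalled 46.7 to 56.6, 86.7 to 94.7, 62.6 to 67.0 and 9.82 to 11.9 FPKM from H1 to HPCs, through NES (58.4 and 60.8 FPKM in the middle) and OTX2 (32.4 FPKM in APLNR+ cells), with PAX6, SOX1 and ZIC1 under 1 FPKM in the middle. The part of other cell types in the contractile and matrix gains was not tested.

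Transcript length also differed between the sets. The median of the longest annotated transcript was 3790.5 bases for gains, 2775.0 bases for losses and 3388.0 bases for all genes tested, and its part in the calls was not tested. Protein-coding genes made up 89.9% of gains, 85.4% of losses and 86.1% of all genes tested.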

How the data were processed

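RNA-seq of 12 libraries (H1, APLNR+, CD31+CD34+ and CD43+ cells, 3 each) was analysed. All values were FPKM from 1 table that the authors deposited, its columns matched to samples by title. The submitters' processing notes name BWA, Bowtie, RSEM and build hg19, without versions or roles. Libraries were made from 2 ug of Trizol-extracted RNA and sequenced by a pair of companies, with the company of each library not given in the sources used here.

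The table held 58365 gene lines and 56593 symbols, and each of the 345 symbols that occurred more than once was represented by its line of highest mean FPKM. Genes with at least 1 FPKM in at least 3 libraries were tested (14840), as log2(FPKM + 1), so the change of low genes is understated. A linear model of the 4 populations was fitted with limma 3.58.1 (R 4.3.3, eBayes, trend) and p values were adjusted by Benjamini-Hochberg over every gene tested. Adjusted p values are from this fit. In simulated data with 200 of 14840 genes changed by 2 log2 units, 196 were called and 0 unchanged genes were. Both middle populations were shifted alike and all else was equal between populations, so calls moved by a single population could not arise there. FPKM are not counts, so no count model was run. EEF1A1, used by every cell, was listed at 0 in 6 libraries, so zeros were not read as absence.

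Gene types and lengths came from GENCODE 29 by symbol (54879 matched). An adjusted p of middle against ends is given for FN1, NRP1, BMP2 and SNAI1 alone. The study took SNAI1 from a screen of its RNA-seq and named the others as representative mesenchymal genes. BMP2 and NRP1 were also among the largest differences of their lists. The choice was thus not independent of these values, and the p values are given as a description. Named genes were FN1, NRP1, the sorting markers, 8 genes that the study discusses, the 12 widest gaps in each direction, up to 5 noncoding genes, the genes at the limit, and the largest differences of each list. Other genes named were chosen after their values were seen. The members and lists were chosen with earlier results of these data known. Alternatives were another pseudocount, other filters, upper-quartile and quantile scaling, other thresholds, the replicate block and leaving out libraries. Python 3.11.15, pandas 2.3.3 and matplotlib 3.10.9 were used. Values of some single genes are not reported here.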

Additional observations from a re-analysis of the deposited data

Results flagged for a closer look

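The 24 genes with the widest gaps were those chosen above among protein-coding genes with a mean of at least 10 FPKM in the higher set. Of these 24, 5 differed between the 2 middle populations by at least 2-fold (limma, adjusted p under 0.05). Among all genes tested, 12.5% were higher and 17.1% lower in HEPs than in APLNR+ cells by the same rule, so such differences were not particular to the 24. HEPs were lower than APLNR+ cells for CYP26A1 (log2 difference -3.51, adjusted p 2.84e-11), MYL7 (-2.17, adjusted p 1.11e-07), BMP4 (-1.72, adjusted p 3.20e-08) and COL5A2 (-1.60, adjusted p 6.73e-07). They were higher for SLPI (1.41, adjusted p 2.47e-07). In each case the 3 libraries of HEPs lay on 1 side of the 3 libraries of APLNR+ cells. None of the 12 losses with the widest gaps differed in this way, and SCAMP5 came nearest (0.98, adjusted p 9.32e-06). Groups of 3 libraries are too small for the test of a single outlying library, and no such test was made.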

How the results depend on the processing

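Depth is unknown and 3 libraries per population limit the precision. With a pseudocount of 0.1, limma called 1626 genes higher and 1175 lower on average, and 405 and 123 in all 4 contrasts. With a mean of at least 5 FPKM, fewer genes were tested and the counts were 608, 323, 145 and 26, with 511 gains and 403 losses. With no minimum change they were 4172, 5440, 869 and 607, with a minimum of 1.5-fold 2050, 2063, 476 and 186, and limma's treat against 1.5-fold called 837 lower. Leaving out 1 library at a time gave 929 to 1007 genes higher and 508 to 587 lower on average, 209 to 229 and 34 to 45 in all 4 contrasts, 950 to 1044 gains and 720 to 882 losses. Without replicate 1 of each population there were 1236 gains and 1091 losses, since fewer libraries must be separated. Upper-quartile scaling gave 1003 gains, of which 897 were among the 932, and 684 losses, of which 600 were among the 691. Quantile normalization gave 954 (821 shared) and 723 (548 shared), and other alternatives stayed within 1.5 times of the counts given. For 132 named genes, 2468 of 2505 differences under an alternative stayed on the same side of the threshold, 25 lost the call, 12 gained it and 0 changed sign in a call. Of the 25, 8 were of CREB3L1 and 7 of OPLAH, both near 2-fold. With the replicate number as a block the counts were 965, 541, 220 and 40, as without it. In this balanced design a block leaves each log2 difference the same, so the equal counts do not test for an effect of the number. Same-numbered libraries correlated between -0.02 and 0.43 after removal of population means, with a median of 0.20, beside -0.15 for other pairs. Of these pairs 12 of 18 were over 0.1, and 7 of 12 libraries were closest to one of their own number. Pairs of replicate 1 correlated between 0.196 and 0.429. An effect shared by libraries of the same number was therefore not excluded, and the main model did not pair the libraries.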

Other observations

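Genes of mitosis held 6 transient gains of 65 (9.23%) and no loss, beside 6.28% and 4.66% of all genes tested. The kinase gene PLK1 averaged 17.8 ± 1.05, 27.5 ± 2.41, 42.5 ± 2.01 and 16.6 ± 1.29 FPKM from H1 to HPCs (log2 difference 0.95 ± 0.06), and the centromeric histone gene CENPA 8.32 ± 0.457, 14.9 ± 1.18, 13.2 ± 0.542 and 6.13 ± 0.881 FPKM (0.89 ± 0.07). Neither reached 2-fold, and limma called 1 gene of the list higher, MYBL2, without separation. The number of gains in the list was 10 with upper-quartile scaling and 11 with quantile normalization.

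Glycolysis genes went both ways, with 3 transient gains and 4 losses of 30, beside 6.28% and 4.66% of all genes tested. With so few genes, these counts were not tested against those shares. The glucose transporter SLC2A3 held 365 ± 20.1 and 463 ± 33.1 FPKM in the middle against 175 ± 6.21 and 104 ± 2.54 FPKM at the ends (1.60 ± 0.06), and PKM (pyruvate kinase) gained by 0.90 ± 0.07. TALDO1, of the pentose phosphate pathway, was a loss, at 116 ± 12.3 and 163 ± 11.1 FPKM at the ends and 46.2 ± 2.13 and 75.0 ± 2.31 FPKM in the middle (-1.20 ± 0.06). GAPDH was a loss by a gap of 0.05 log2 units, and the losses numbered 3 with upper-quartile scaling and 2 with quantile normalization. Secretory pathway genes held 8 gains and 1 loss of 73, with a share of gains above and a share of losses (1.37%) below those of all genes. Translation genes held 1 gain (1.75%) and 3 losses (5.26%) of 57. Chromatin regulators held 0 gains and 4 losses (6.35%) of 63. The shares of losses in these last lists were near the 4.66% of all genes tested.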
